A study of Homo sapiens with 16 samples.

Results

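The mRNAs of 10 regulators of apoptosis, 9 members of the BCL2 family and the caspase inhibitor XIAP, were followed across sucrose gradients of human cells with and without arsenite. They were taken by gene symbol, with earlier results of these data known, by a rule that uses no measured value, and all 10 were present among the 13148 genes of the deposited table. The cells were 293S, an established line of the human HEK293 family, grown as an adherent monolayer. They had either been left without treatment (control) or been given 1 mM sodium arsenite, a thiol-reactive compound that sets off the cellular stress response, for 30 minutes. Total RNA from 8 fractions of 1 gradient per condition was sequenced, giving 16 libraries with 1 library for each condition and fraction. With no replicate gradient there is no replicate check on any difference below, and no p-value is given. All 5 genes used to check the labelled line (NEFL, NEFM, INA, VIM and PAX2) were listed in the table, but shares carry no level, so the table cannot show how strongly they were expressed.

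The BCL2 family decides whether the outer mitochondrial membrane stays intact. BAX and BAK1 form pores in it and release cytochrome c, which leads to caspase activation. MCL1, BCL2 and BCL2L1 (the gene of BCL-XL) bind and restrain them, and the BH3-only proteins BCL2L11 (BIM), BBC3 (PUMA), PMAIP1 (NOXA) and BID promote death by engaging the survival proteins or the pore formers. XIAP acts further down, by binding and inhibiting caspases. MCL1 is a very short-lived protein, so its supply depends closely on continued translation. A sucrose gradient sorts mRNAs by the size of the particles they travel in, including ribosomes, so the distribution of an mRNA over fractions is widely used as a readout of its translation.

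Each deposited value says how much of a gene's signal in a gradient was found in one fraction, so that the 8 values of a gene and gradient add up to 1. They are given here in percent. Both the abundance of an mRNA and the number of reads behind its values are unknown, so no counting interval is given. No member was listed at 0 in any of the 16 libraries. Position means the average fraction number of an mRNA, each fraction counted by its share. Which end of the gradient bears number 1 is not stated in the labels, and the column headers only call the samples polysome fractions. With arsenite 98.3% of all genes and all 10 members lay at a lower position, with a median change of −1.46 fractions over all genes, so each member is also described by its relative shift, which is its change in position minus that median. The size of the common change depends on the weight each library was given, on which the labels are silent. With median-of-ratios size factors, a scaling that makes the typical gene alike in every library, the common change was −0.23 fractions. Some members then lay at a higher position with arsenite than in the control. The verb moved is used for a gene with a relative shift of 0.5 fractions or more in size that kept its sign with each fraction number left out of both gradients in turn.

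In this comparison 3 of the 10 mRNAs moved to higher numbers than the typical gene, namely BCL2, XIAP and BCL2L11, while none moved lower and 7 met neither rule. Over all genes 23.6% moved higher and 24.0% moved lower. With size factors BCL2L1 joined the 3, so that 4 members moved higher and none lower, against 28.7% and 26.4% of all genes. The median relative shift of the members was 0.13, against 0 for all genes by construction. It was not stable to the choice of fractions or scaling, with −0.045 without fraction 6, 0.0032 without fraction 7, 0.47 without fraction 5 and 0.32 with size factors. The 4 survival mRNAs (MCL1, BCL2, BCL2L1 and XIAP) had a median of 0.43 and the 6 death-promoting ones a median of 0.01. These groups overlapped, since MCL1 lay below 4 of the death-promoting mRNAs and BCL2L11 above 2 of the survival mRNAs. Members are not replicates of a condition, so this difference of 0.41 fractions is a description of 10 genes in these libraries. It was 0.17 without fraction 5. The death-promoting mRNAs other than BCL2L11 were all shorter than the survival mRNAs, and the part of mRNA length in this difference was not tested.

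**Figure D1:**
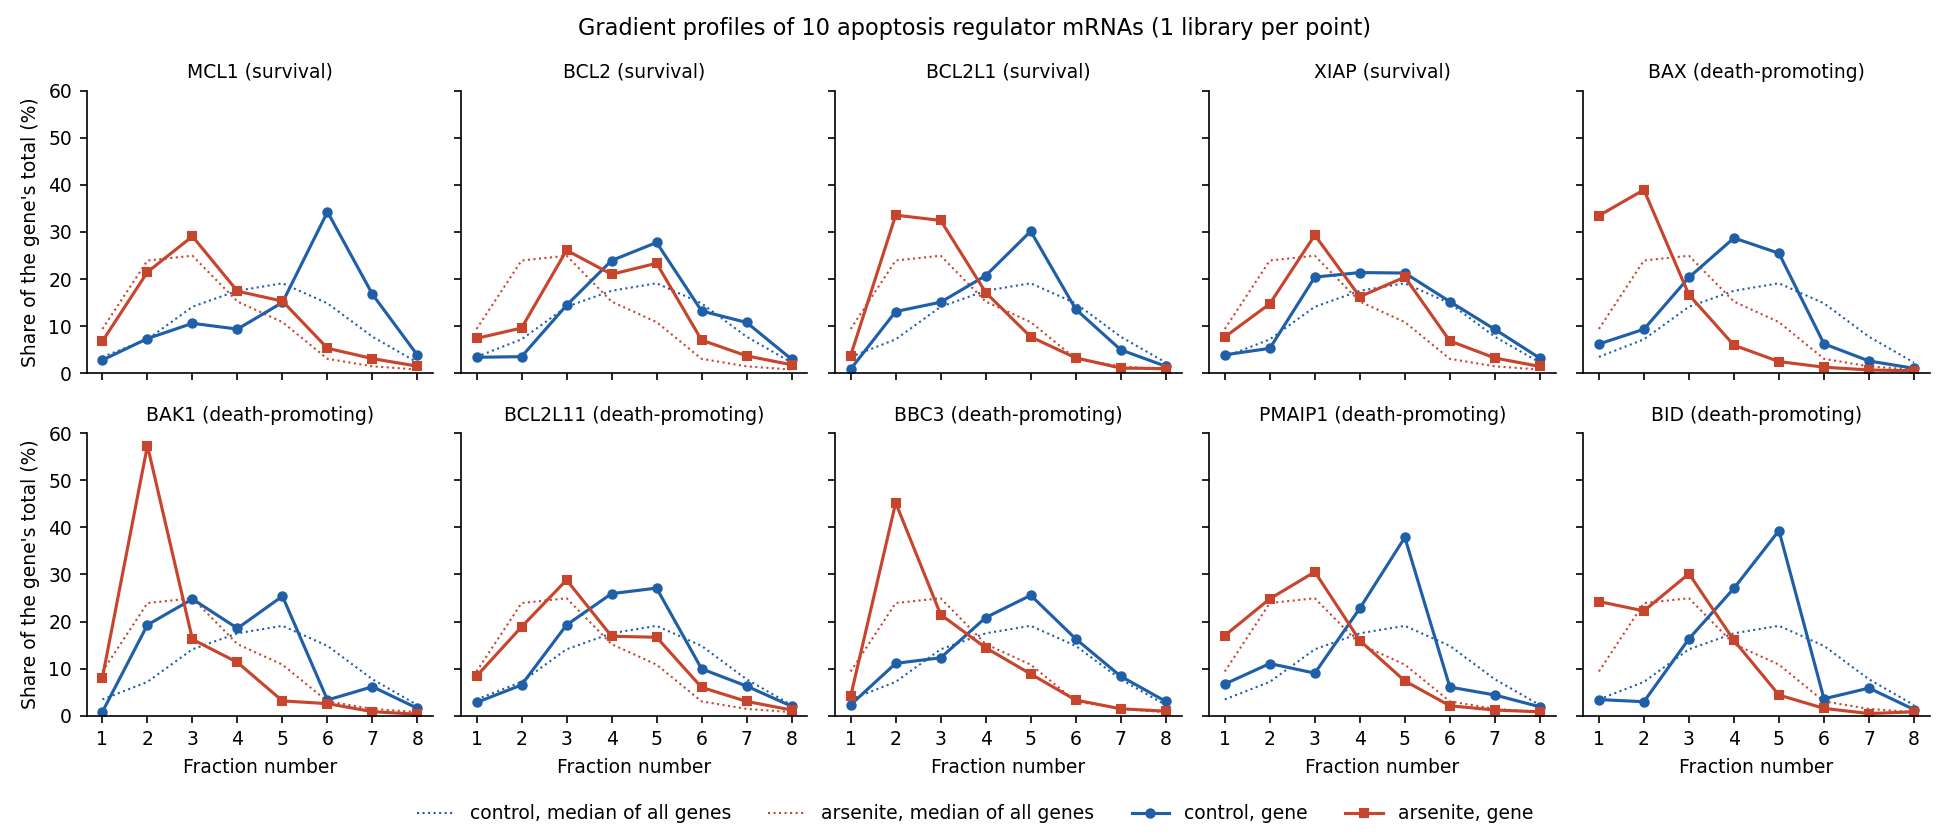
Share of each gene's total (percent, y axis) in fractions 1 to 8 (x axis) in the control gradient (blue circles) and with arsenite (red squares), 1 library per point, with dotted lines for the median of all genes in each library. BCL2 and XIAP kept a second high point in fraction 5 with arsenite, at 23.3% and 20.4%, whereas BAX and BAK1 had 2.49% and 3.17% there.

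BCL2, which encodes the founding survival protein of the family, had 3.40, 3.53, 14.4, 23.9, 27.8, 13.2, 10.8 and 2.97% of its total in control fractions 1 to 8. With arsenite the values were 7.40, 9.61, 26.1, 21.0, 23.3, 7.04, 3.70 and 1.81%. The profile thus had its highest point in fraction 5 in the control and in fraction 3 with arsenite, with fraction 5 a close second. Its positions were 4.67 and 3.88, a relative shift of 0.67. This was the largest of the 10 members, and 83.5% of all genes had a lower one. Fractions 5 to 8 together held 54.7% of BCL2 before and 35.9% after treatment, where the median gene had 53.9% and 16.4%.

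XIAP, whose protein binds caspases directly and blocks them, had control shares of 3.92, 5.29, 20.4, 21.4, 21.3, 15.2, 9.32 and 3.20% in fractions 1 to 8. With arsenite its shares were 7.71, 14.8, 29.3, 16.2, 20.4, 6.86, 3.25 and 1.45%. Fractions 3, 4 and 5 of the control were nearly equal, and with arsenite fraction 3 stood above fractions 4 and 5. Its share in fraction 5 was nearly the same in both gradients, while the median gene went from 19.1% to 10.9% there. Its position was 4.50 and 3.68, a relative shift of 0.64. GENCODE names 3 XIAP pseudogenes, on chromosomes 2, 10 and 11, and the handling of reads shared with them is unknown, so the XIAP values are uncertain to that extent.

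BCL2L11 encodes BIM, a BH3-only protein that binds all the main survival proteins, and it was the only death-promoting member among the 3 that moved. Its control shares in fractions 1 to 8 were 2.83, 6.55, 19.3, 25.9, 27.1, 9.96, 6.31 and 2.03%. Its shares with arsenite were 8.41, 18.9, 28.8, 16.9, 16.7, 6.04, 3.06 and 1.23%. Its profiles were close to those of XIAP. The percent of the total that would have to change fraction to turn one profile into the other was 11.6% in the control and 5.48% with arsenite, on average the smallest such distance among the 45 pairs of members. The position was 4.33 and 3.51 and the relative shift 0.63, which did not reach 0.5 without fraction 6 (0.47) or fraction 7 (0.46). With size factors it was 1.01.

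The share in fractions 5 to 8 was lower with arsenite for all 10 members and for 95.7% of all genes. BCL2, XIAP and BCL2L11 kept more of their total in fractions 5 to 8 than the other members did. With arsenite BCL2 had 65.6% of its control share there, XIAP 65.2% and BCL2L11 59.5%, and 27.6% of all genes had at least 50%. The other 7 members had from 14.2% (BAX) to 36.1% (MCL1) and only MCL1 lay above the median over all genes of 32.7%. With size factors the 3 mRNAs and BCL2L1 had a larger share in fractions 5 to 8 with arsenite than in the control, from 104% of it for BCL2L1 and 129% for BCL2 to 145% for BCL2L11. The direction of their own change in position is therefore not settled by these shares. The place of BCL2, XIAP and BCL2L11 above the typical gene was found with both scalings. As deposited, BCL2L1 had 26.1% of its control share in fractions 5 to 8, below the median over all genes. PMAIP1 also lay at a higher position with arsenite under size factors (3.98 against 3.78), so its direction is not settled either.

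The series concerns the contacts of Argonaute 2 with mRNAs, which microRNAs direct by pairing of their seed, bases 2 to 8, with sites in 3′ UTRs. The 3′ UTRs of all 10 members were searched on the sense strand for the 7 bases that pair with the seeds of 7 microRNAs often discussed with these genes. Those of miR-17-5p and miR-92a-3p, which are processed from 1 precursor on chromosome 13, were both found in BCL2 and BCL2L11, which moved, and in MCL1, which did not. The mature sequences from RefSeq (GRCh38.p14, chr13:91350618-91350640 and chr13:91351361-91351382, plus strand; the second also has a copy on chromosome X) are shown with the seed in capitals.
hsa-miR-17-5p: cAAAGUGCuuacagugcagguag
hsa-miR-92a-3p: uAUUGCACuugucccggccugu
The match to the miR-17-5p seed, GCACTTT, was present once in BCL2L11, once in MCL1 and 2 times in BCL2, and in 24.0% of the 12950 genes with an annotated 3′ UTR. The 23 bases around the sites of BCL2L11, MCL1 and BCL2 in the GENCODE transcripts are given 5′ to 3′ with the match in capitals, and with the GRCh38 position of the 23 bases, while the deposited values rest on hg19.
BCL2L11, chr2:111166215-111166237, plus strand: agtctcctgactagaGCACTTTa
MCL1, chr1:150575142-150575164, minus strand: tctaaggacctaaaaGCACTTTa
BCL2, chr18:63125505-63125527, minus strand: ttaaatagagtatatGCACTTTc
BCL2, chr18:63123440-63123462, minus strand: ccattagctataatgGCACTTTg

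The match to the miR-92a-3p seed, GTGCAAT, was present 2 times in BCL2L11 and once each in BCL2, MCL1 and BAK1, and in 12.5% of genes. Those of BCL2L11 are shown because this BH3-only gene is the death-promoting member that moved.
BCL2L11, chr2:111166911-111166933, plus strand: gagccaaatgtctgtGTGCAATt
BCL2L11, chr2:111168350-111168372, plus strand: attgccactttacttGTGCAATa
BAX, PMAIP1, BID, BBC3 and BCL2L1 held neither match. A match to the miR-29a-3p seed (TGGTGCT, 16.1% of genes) was present in MCL1, BCL2, BAK1 and BBC3, one to miR-125b-5p (CTCAGGG, 15.8%) in MCL1, BCL2 and BAK1, and one to miR-16-5p (TGCTGCT, 24.0%) in BCL2 and BCL2L11. The let-7a-5p match (CTACCTC, 10.6%) was found in BCL2L1 alone of the 10, and the miR-34a-5p match (CACTGCC, 17.0%) in BAX alone. A match is a description of letters and grows more likely with the length of a 3′ UTR, and these data do not show which sites were bound.

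MCL1, the short-lived survival protein, lay furthest along of all members in the control. Its shares there were 2.81, 7.36, 10.6, 9.38, 15, 34.2, 16.8 and 3.82% in fractions 1 to 8, so that fraction 6 alone held more than fractions 1 to 4 together. With arsenite they were 6.80, 21.5, 29.1, 17.4, 15.3, 5.31, 3.12 and 1.5%, with the highest point in fraction 3. The share in fraction 6 was thus 34.2% and 5.31%, whereas the share in fraction 5 was 15% and 15.3%. MCL1 stood at 5.15 in the control, above 84.0% of all genes, and at 3.49 with arsenite, above 74.4%. Its relative shift of −0.21 did not meet the rule, and its sign depended on the scaling, with 0.17 under size factors. Taking the fraction number by which 50% of an mRNA had accumulated in place of the mean, it was −0.58. With arsenite its profile was almost that of BCL2L11, at a distance of 3.70%, the smallest of all pairs in that gradient, where the same pair stood 37.3% apart in the control.

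BCL2L1, the gene of BCL-XL, had control shares of 0.883, 13.1, 15.1, 20.7, 30.1, 13.6, 4.98 and 1.49% in fractions 1 to 8. With arsenite they were 3.77, 33.6, 32.4, 17.1, 7.73, 3.27, 1.11 and 0.994%, so that fractions 2 and 3 were nearly equal and held most of the mRNA. Its position was 4.34 and 3.11, with a relative shift of 0.22 that did not meet the rule. With size factors the relative shift was 0.56 and it did. The gene gives both a long survival form and a short death-promoting form by splicing, and the deposited values are per gene, so the forms cannot be told apart here.

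As deposited, the pore formers BAX and BAK1 lay lowest of the members in both gradients. With size factors BAX still lay lowest in both. PMAIP1 (3.78) then lay below BAK1 (3.86) in the control, and BID (3.45) below BAK1 (3.63) with arsenite. BAX had 6.21, 9.35, 20.3, 28.7, 25.5, 6.25, 2.61 and 1.06% in control fractions 1 to 8, with its high point in fraction 4. With arsenite it had 33.5, 38.9, 16.6, 5.95, 2.49, 1.29, 0.705 and 0.534%, so that 72.4% lay in fractions 1 and 2, against 15.6% in the control. It was the member with the lowest relative shift, −0.32, at positions 3.92 and 2.14, which is under the threshold in size. Its sign turned without fraction 5 (0.07). It was lowest without fraction 2 (−0.56), where BAX did not meet the rule, and without fraction 3 (−0.53) or fraction 7 (−0.52) BAX was called moved lower.

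BAK1 had 0.842, 19.3, 24.8, 18.6, 25.4, 3.36, 6.18 and 1.59% in control fractions 1 to 8 and 8.12, 57.3, 16.2, 11.3, 3.17, 2.59, 0.882 and 0.347% with arsenite. Fraction 2 of the arsenite gradient, at 57.3%, was the highest share of any member in any library. Its position was 3.91 and 2.57, a relative shift of 0.12 that was nearly 0 with size factors and 0.50 without fraction 5. The control positions of BAX and BAK1 differed by 0.01 fractions and their positions with arsenite by 0.43. GENCODE names 2 BAK1 pseudogenes, on chromosomes 11 and 20, so BAK1 values carry the same uncertainty as those of XIAP.

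The other BH3-only mRNAs did not meet the rule. BBC3, whose product PUMA is induced by p53, had 2.34, 11.1, 12.3, 20.8, 25.6, 16.3, 8.39 and 3.06% of its total in control fractions 1 to 8. With arsenite the shares were 4.17, 45.2, 21.5, 14.4, 8.87, 3.35, 1.49 and 0.989%. Its high point thus lay in fraction 5 without and in fraction 2 with arsenite. Its positions were 4.54 and 3.0 and its relative shift −0.09 (0.22 with size factors, 0.28 without fraction 2), close to the typical gene under each.

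PMAIP1, which encodes the MCL1-binding protein NOXA, and BID, which links death receptors to mitochondria after cleavage by caspase 8, shared a sharp control peak in fraction 5, at 37.8% and 39.3%. These were the highest control shares of any member. The other control shares of PMAIP1 lay between 1.91% and 22.8%, and those of BID between 1.34% and 27.1%. With arsenite fraction 5 held 7.40% of PMAIP1 and 4.41% of BID. Both then had their largest share in fraction 3, at 30.5% and 30.2%. The positions of PMAIP1 were 4.19 and 2.87, its relative shift 0.14 as deposited and 0.43 with size factors, and without fraction 5 it was called moved higher at 0.55. The positions of BID were 4.37 and 2.65, its relative shift −0.26 as deposited and −0.57 with size factors, which is past the threshold but changed sign with a fraction left out, and without fraction 5 its sign turned, at 0.13.

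**Figure D2:**
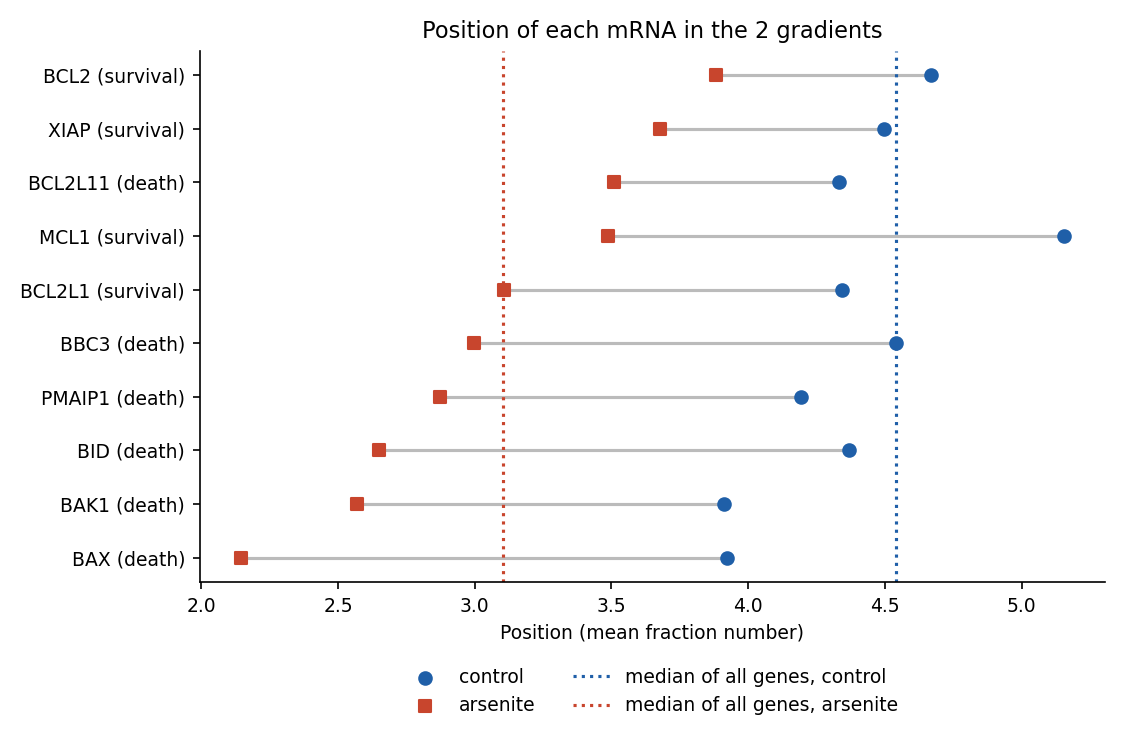
Position (mean fraction number, x axis) of each of the 10 mRNAs in the control (blue circles) and with arsenite (red squares), 1 gradient per condition, ordered by the arsenite position, with dotted lines for the median of all genes. With arsenite BCL2 lay highest at 3.88 and BAX lowest at 2.14.

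As deposited, the positions of the members spanned more fractions with arsenite than without it. Over all genes the span from the lowest to the highest gene was 4.68 fractions with arsenite and 5.57 in the control. That span is set by the most extreme genes, so it does not show how the spread of typical genes changed. In the control the positions of the members ran from 3.91 (BAK1) to 5.15 (MCL1), a span of 1.24 fractions. MCL1 stood apart there from the next mRNA, BCL2, at 4.67. With arsenite they ran from 2.14 (BAX) to 3.88 (BCL2), a span of 1.74 fractions. In order from the top these were BCL2, XIAP, BCL2L11, MCL1, BCL2L1, BBC3, PMAIP1, BID, BAK1 and BAX. Of the 5 mRNAs above the middle of this order, 4 were survival mRNAs. With size factors BBC3 (4.62) lay just above BCL2L1 (4.60) with arsenite and took its place among the upper 5. MCL1 (5.22) then also lay above BCL2L11 (5.11), and BAK1 (3.63) above BID (3.45). The order also went with mRNA length, as given below. Whether neighbours in these orders differ beyond the spread between gradients cannot be told from 1 gradient each. Over the 45 pairs of members the median distance between 2 profiles was 18.6% of the total in the control and 25.9% with arsenite. For 29 of the 45 the treated pair stood further apart. The 45 pairs share 10 genes, and the same values were not computed for pairs of other genes, so these are descriptions. The most distant pair with arsenite was BCL2 and BAX, at 55.4%, against 19.3% in the control.

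Equal fraction numbers of the 2 gradients were set against each other as log2 ratios, arsenite over control. Shares were first raised by 1 percentage point, a step that shrinks the ratios of small shares. The range of these ratios over the members was widest in fractions 4 and 5. The shares themselves also differed widely elsewhere, as in fraction 2 with arsenite, from 9.61% (BCL2) to 57.3% (BAK1). In fraction 5 the ratio was at least 2-fold lower for 6 members, against 41.9% of all genes, and these were BAX (−2.92), BID (−2.90), BAK1 (−2.66), PMAIP1 (−2.21), BCL2L1 (−1.83) and BBC3 (−1.43). The 4 others had log2 ratios of 0.02 (MCL1), −0.06 (XIAP), −0.24 (BCL2) and −0.67 (BCL2L11), where the median over all genes was −0.72. In fraction 2 the ratio was at least 2-fold higher for all 10 members, from 1.10 for PMAIP1 to 2.54 for BID, and for 71.6% of all genes. In fraction 1 it was at least 2-fold higher for 7 members (58.3% of genes) and in fraction 3 for 3 members (35.0%), namely PMAIP1 (1.65), MCL1 (1.37) and BCL2L1 (1.06). In fraction 4 BAX alone was at least 2-fold lower (−2.10; 21.2% of genes), while MCL1 was highest there (0.83), and in fraction 8 BBC3 alone (−1.03; 42.7%). In fraction 7 it was at least 2-fold lower for 9 members and for 82.6% of genes. The exception was BCL2L11, at −0.85 against a median over all genes of −1.86. In fraction 6 it was at least 2-fold lower for 6 members and for 78.6% of genes, and BAK1 (−0.28), BCL2L11 (−0.64), BCL2 (−0.82) and BID (−0.84) did not reach that size. The control share in fraction 6 was only 3.36% for BAK1 and 3.61% for BID. The counts of 2-fold differences depended on the number of percentage points added. With 10 added they were 4 members in fraction 2, 5 in fraction 5, 1 in fraction 6 and 1 in fraction 7, against 43.2%, 25.2%, 40.7% and 29.3% of genes. With 0.1 added they were 10, 6, 7 and 10, and fraction 8 then held 5 members in place of 1, against 71.9% of genes. The directions depended on the scaling. With size factors 9 of 10 members had a larger share with arsenite in fraction 6 (54.3% of genes) and 3 in fraction 5 (53.5%), against 0 (5.42%) and 1 (28.2%) as deposited. For fraction 1 the members were 5 (58.0%) against 10 (93.4%), for fraction 2 4 (46.2%) against 10 (94.6%). For fraction 3 they were 4 (47.0%) against 8 (79.3%). Fraction 7 had 8 (46.8%) against 0 (3.86%) and fraction 8 had 9 (48.2%) against 0 (6.40%).

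**Figure D3:**
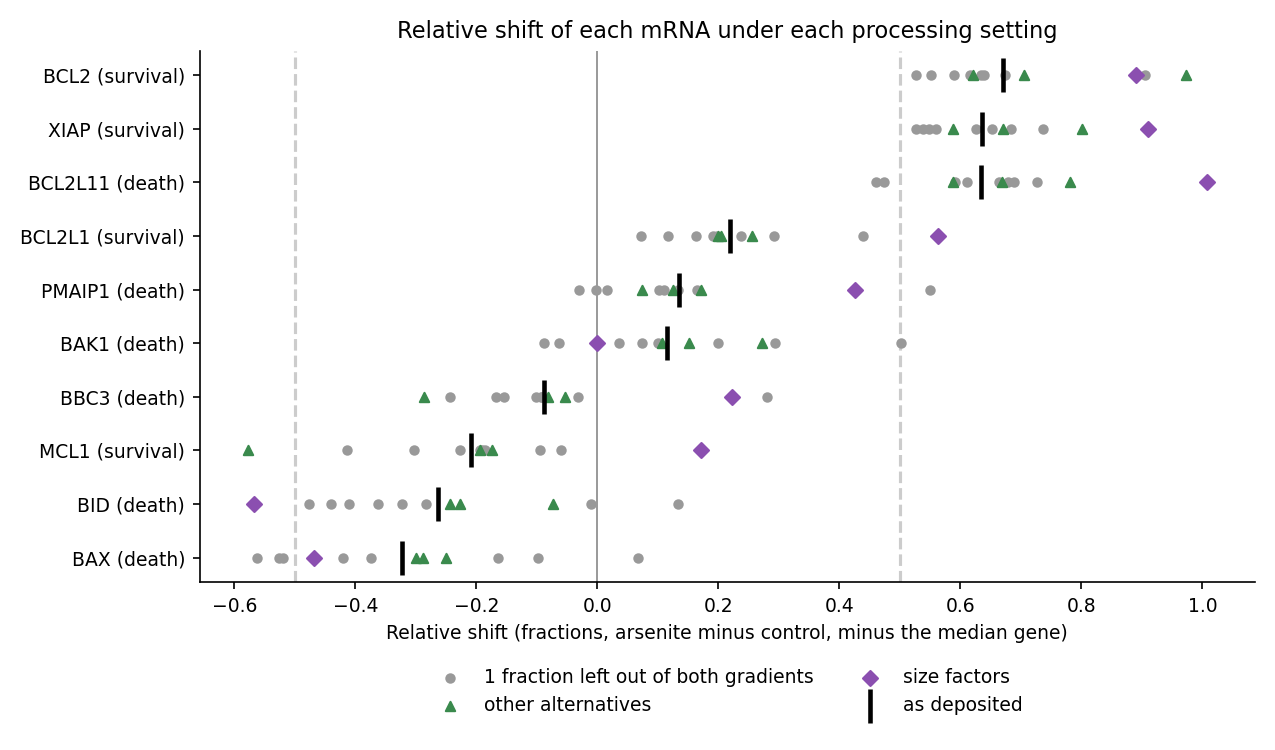
Relative shift (x axis, in fractions) of each of the 10 mRNAs as deposited (black bars), with each fraction left out (grey), with size factors (purple) and under the other alternatives (green triangles); dashed lines mark 0.5 fractions in each direction. BCL2 and XIAP stayed above 0.5 in each setting run, with lowest values of 0.53 and 0.53.

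Control position and mRNA length went with these values, and their part in them was not tested. The first concerns where an mRNA started, because genes at low control positions tended to have higher relative shifts (Spearman correlation across the 13148 genes −0.55; genes are not independent replicates and the control position is part of the shift). Genes within 0.25 fractions of BCL2 in the control had a median relative shift of −0.06, those near XIAP 0.07 and those near BCL2L11 0.18. All 3 mRNAs lay above these medians, by 0.73, 0.57 and 0.45 fractions. BAX started low, where the median was 0.40, and its difference from that median was −0.73. The value for BID was −0.42 and that for MCL1 0.18.

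For mRNA length, the longest mRNA of each gene that GENCODE release 29 pairs with a RefSeq mRNA was taken. XIAP (8591 nt), BCL2 (7461 nt) and BCL2L11 (5231 nt) were the longest of the 10 members and the 3 that moved. MCL1 followed with 3932 nt, and the others ran from 1358 nt (BAX) to 2610 nt (BCL2L1), against a median of 3388 nt over all genes. Their coding sequences ran from 165 nt (PMAIP1) to 1494 nt (XIAP), against a median of 1422 nt over all genes, and most of the length of the 3 longest was 3′ UTR, with 6798 nt in XIAP, 5279 nt in BCL2 and 4424 nt in BCL2L11. BCL2L11 has 13 such mRNAs of 243 to 5231 nt, and the gene values do not tell them apart. Across the 10 members length had a Spearman correlation of 0.88 with the arsenite position, 0.50 with the control position and 0.75 with the relative shift. Over 13036 genes the last value was 0.41. All members come from the same libraries, so these values are descriptions. Genes within 1.25-fold of BCL2 in length had a median relative shift of 0.35, those near XIAP 0.39 and those near BCL2L11 0.21, and the 3 mRNAs lay above these by 0.32, 0.25 and 0.43 fractions. Of the other 7 members, 5 also lay above the genes of like length, by 0.20 (BBC3) to 0.39 (PMAIP1), and MCL1 (−0.27) and BID (−0.13) lay below them. BAX was thus above short genes, whose median was −0.55, although it lay lowest of the members. Set against genes of like length, the survival mRNAs ran from −0.27 (MCL1) to 0.34 (BCL2L1), with middle values of 0.25 (XIAP) and 0.32 (BCL2). The death-promoting mRNAs ran from −0.13 (BID) to 0.43 (BCL2L11), with middle values of 0.23 (BAX) and 0.33 (BAK1). By this measure the groups overlapped and the survival mRNAs as a set did not lie above the death-promoting ones.

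**Figure D4:**
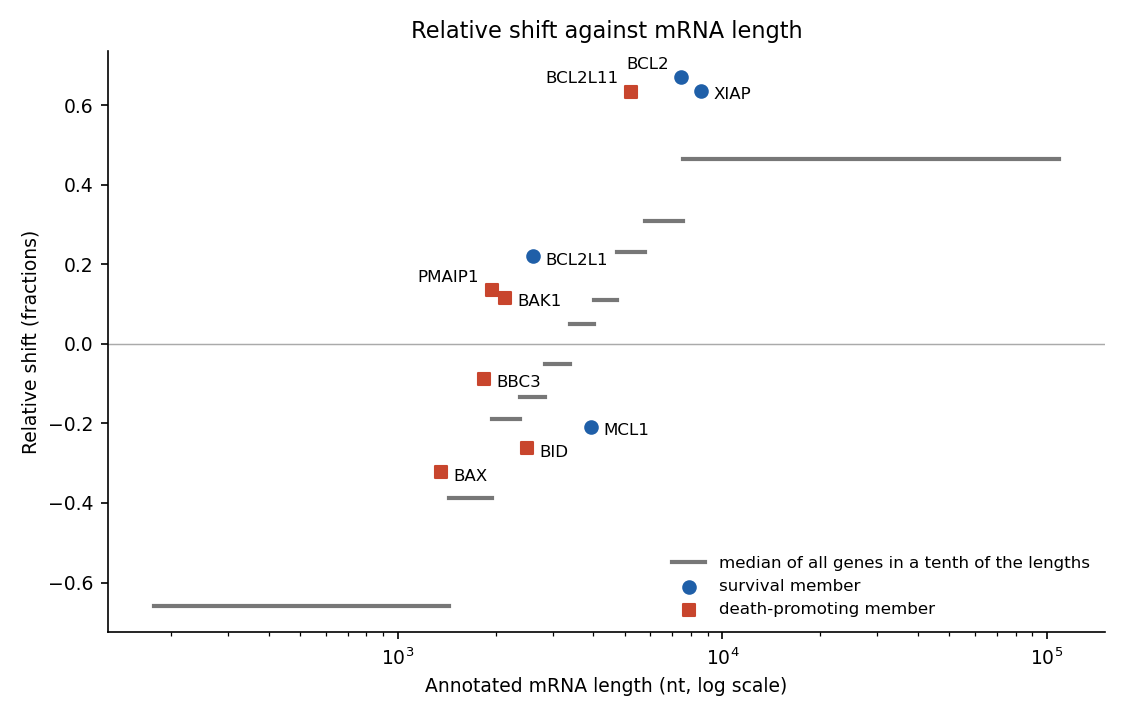
Relative shift (y axis, in fractions) against annotated mRNA length (x axis, nt, log scale) for the 4 survival (blue circles) and 6 death-promoting (red squares) mRNAs, with grey bars for the median of all genes in each decile of length. The bars run from −0.66 for the shortest mRNAs to 0.46 for the longest, and XIAP, BCL2 and BCL2L11 are the longest members.

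ATG triplets on the sense strand of the 5′ UTR were counted as possible starts of upstream reading frames, which can alter translation under stress. Frames and stop codons were not checked. An ATG grows more likely with the length of a 5′ UTR, whose median was 217 nt over genes with an annotated one. BCL2, with a 5′ UTR of 1462 nt, had 11, BCL2L1, BAK1 and BID had 3 each, BBC3 had 2, and XIAP and BCL2L11 had 1 each. MCL1 and PMAIP1 had none, and the longest BAX mRNA in the annotation has no 5′ UTR. At least 1 was present in 56.1% of the 12809 genes with an annotated 5′ UTR. All 3 members that moved had at least 1, as had 4 of those that did not.

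For each member the genes with the most similar pair of profiles, up to 2, are given from the 11625 genes with no 0. The measure was the percent of the total that would have to change fraction, averaged over both gradients. BCL2L11 had the closest partners, MFSD6 (3.44%) and PANK1 (3.79%), followed by XIAP with ARHGAP11A (4.07%) and ADAM22 (4.12%). BCL2 was most like SOS1 (4.73%) and ZFYVE9 (5.26%), BCL2L1 most like HOXB9 (4.41%), and MCL1 most like TLE1 (4.99%) and SDE2 (5.22%). BAX was closest to AUP1 (4.59%) and RAP1A (5.24%), and BBC3 to ZC3H15 (5.37%) and TXNDC5 (6.08%). PMAIP1 and BID had the same closest gene, PFDN1 (6.23% and 6.94%), with YIPF6 (6.45%) and TRAPPC3 (7.42%) next. BAK1 had no partner as near as those of the other members, with GTDC2 at 7.66% and MON1A at 8.79%.

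Of 51 further apoptosis genes listed by role, 42 were in the table, and 8 of these moved higher and 11 lower, the other 23 meeting neither rule, with a median relative shift of −0.23 (with size factors 12, 13 and −0.20). These are 19.0% higher and 26.2% lower, near the 23.6% and 24.0% of all genes, and with size factors 28.6% and 31.0%, near 28.7% and 26.4%. BCL2L2, the gene of the survival protein BCL-W and the only other survival gene of the family in the table, moved higher (1.16), at positions 3.96 and 3.66. Among 6 further BH3-only and related genes 3 moved lower and 1 higher, and with size factors 2 and 2, where BMF was the second that moved higher (0.42 as deposited and 0.86 with size factors). BIK lay lowest (−1.24), with BNIP3L (−1.08) and BNIP3 (−0.66, and −0.45 with size factors) also lower, and HRK moved higher (0.78, and 1.37 with size factors). BIK and HRK were each listed at 0 in 1 library. Of the 3 family relatives of mixed or unclear role, BCL2L15 moved higher (1.72) but was listed at 0 in 7 libraries, and BCL2L13 (0.23, but 0.62 and moved higher with size factors) and BCL2L12 (−0.35, and −0.74) did not meet the rule.

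The IAP relatives of XIAP were divided. NAIP (1.20, and 2.01 with size factors), BIRC3 (0.81) and the giant BIRC6 (0.53, but 0.05 with size factors) moved higher, and BIRC5, the mitotic regulator survivin, moved lower (−0.60). BIRC2 did not meet the rule (0.13, but 0.51 with size factors, where it moved higher). NAIP was listed at 0 in 6 libraries and BIRC3 in 2, and NAIP has close copies in the genome that can share reads. The IAP antagonists bind or cleave IAPs to lift their block on caspases. DIABLO (−1.16, and −1.74 with size factors) and HTRA2 (−0.63) moved lower, DIABLO from 4.70 to 2.09, and SEPT4 did not meet the rule (−0.03, and −0.24).

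Of 11 genes of the apoptosome and the caspases 2 moved lower and 1 higher, with a median of −0.39. With size factors 4 moved lower and none higher, the added ones being CASP8 (−0.25, and −0.53 with size factors) and DFFA (−0.44, and −0.81). CASP6 lay lowest (−0.85, and −1.32 with size factors) and CASP10 highest (0.51, and 0.31, under the threshold). CASP9, the initiator caspase of the mitochondrial pathway, moved lower (−0.70, and −1.32 with size factors). None of 7 death receptor pathway genes met the rule, from FADD (−0.45) to CFLAR (0.49), though with size factors FAS (0.60), TNFRSF10B (0.56) and CFLAR (0.69) did, all higher. Among 3 genes for MCL1 protein turnover, FBXW7, a ubiquitin ligase subunit, moved higher (1.09, and 1.74 with size factors). HUWE1, another ligase (−0.10, but −0.90 with size factors, where it moved lower), and USP9X, which removes ubiquitin (−0.19, and −0.51), did not meet the rule. All 3 VDAC genes, which encode the main channels of the outer mitochondrial membrane, moved lower, from −1.09 for VDAC1 and −1.51 for VDAC2 to −1.85 for VDAC3. The position of VDAC3 was 5.16 without and 1.86 with the treatment. With 1 fraction left out, several of these values came under the threshold, and the ones nearest 0 were 0.08 for BIRC6, 0.16 for CASP10, 0.48 for HRK, −0.23 for BIRC5, −0.27 for BNIP3, −0.33 for HTRA2, −0.35 for CASP6 and −0.45 for CASP9.

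**Figure D5:**
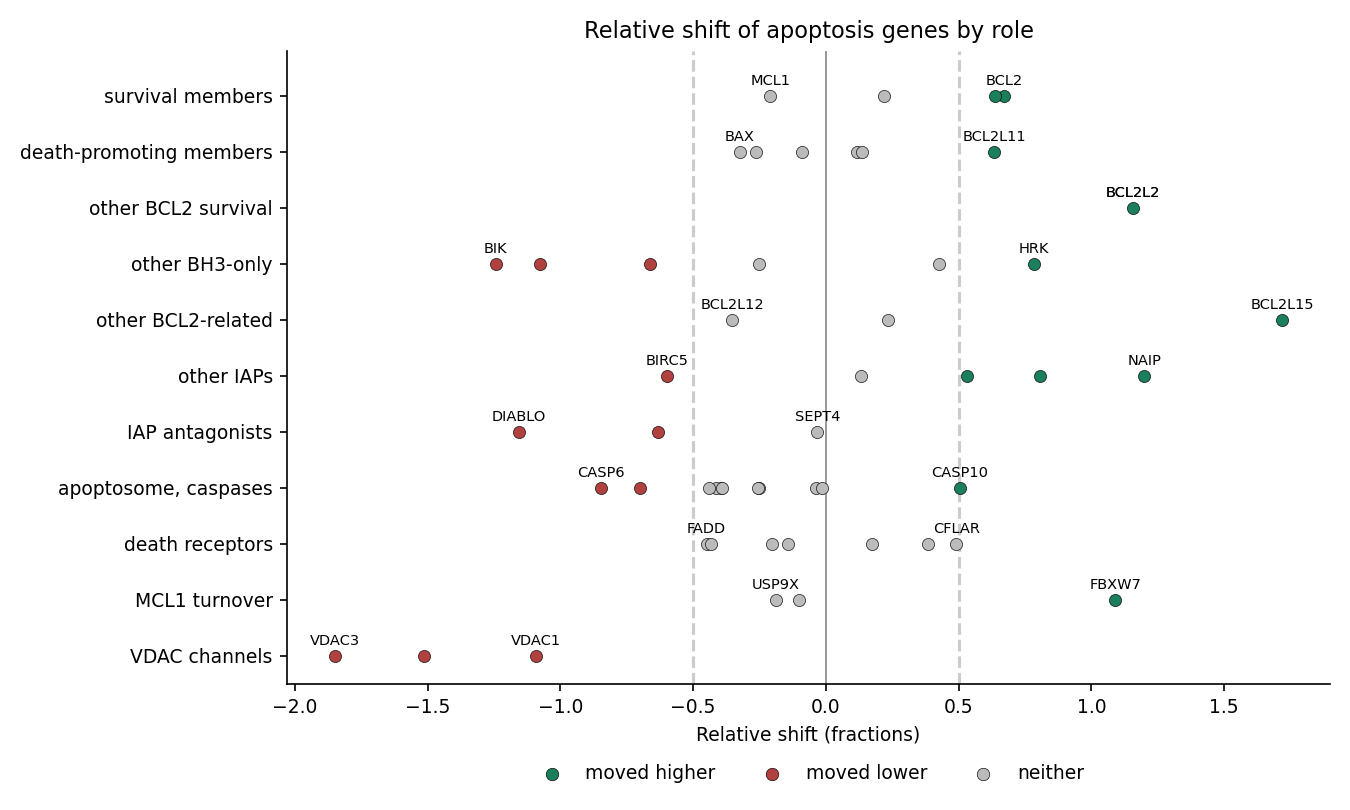
Relative shift (x axis, in fractions) of the 4 survival and 6 death-promoting members and of 42 further apoptosis genes by role (rows), coloured by call (higher, lower or neither), with the lowest and the highest gene of each row named. VDAC2 and VDAC3 lie furthest to lower numbers, at −1.51 and −1.85, and BCL2L15 furthest to higher ones, at 1.72.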

How the data were processed

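Each condition, untreated 293S cells and cells given sodium arsenite at 1 mM over 30 minutes, was represented by 8 gradient fractions, whose RNA was prepared with Trizol and the NSR method, per the labels' protocols. The authors deposited 1 table with a fraction for each gene and library, the share of the gene's total over the 8 fractions of its gradient, and per the file headers it covers RefSeq exons. The deposited score columns, mean fraction number and its difference, differed from the same quantities recomputed here by at most 8.0e-15. Per the submitters' processing notes, reads were placed on hg19. Depth is unknown, with aligner, counting, strand and scaling not given in the sources used here.

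Groups came from the sample titles. Relative shift, the 0.5 fraction rule and log2 ratios after adding 1 percentage point are defined with the results. The calls were run on simulated profiles with planted shifts larger than the 0.5 fraction rule and with read sampling as the only noise. That run cannot show how the calls fare with differences between gradients or in library weights. Named were all 10 members, the highest and lowest gene of each list (lists of at most 4 in full) and the 2 genes most like each member; others were named after their values were seen. One similar gene and the XIAP seed matches are not reported here. The members and lists were chosen with earlier results of these data known.

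GENCODE release 29 symbols matched 13036 of 13148 genes (99.1%), 719 by an older symbol, and 12946 had a RefSeq-paired mRNA. The choice of the longest such mRNA was made after a principal isoform had been seen to leave out the long BCL2L11 mRNAs. Python 3.11.15, numpy 2.4.6, pandas 2.3.3 and matplotlib 3.10.9 were used. Alternatives were size factors, a pseudocount on shares, each fraction left out, the 50% point, genes with no 0, thresholds of 0.25 and 1 and pseudocounts of 0.1 and 10.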

Additional observations from a re-analysis of the deposited data

How the results depend on the processing

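The count of 3 members moved higher was 5 without fraction 5 (BCL2, XIAP, BCL2L11, BAK1 and PMAIP1) and 0 at a threshold of 1 fraction. The count of 0 moved lower was 1 (BAX) without fraction 3 and without fraction 7. The median relative shift of the members, 0.13 as deposited, was 0.32 with size factors, 0.29 without fraction 2, 0.052 without fraction 3, 0.47 without fraction 5, 0.0032 without fraction 7 and −0.045 without fraction 6, the opposite sign. The difference between the medians of survival and death-promoting mRNAs, 0.41, was 0.17 without fraction 5. It stayed positive in the alternatives run, none of which took account of mRNA length. Beside genes of like length the middle values of the groups were close, as given with mRNA length. The cause of these changes was not tested. The other 41 values of these 4 results kept their direction and lay within 1.5 times the value reported. BCL2 and XIAP were called moved higher in each of 12 alternatives and BCL2L11 in 10. The log2 ratios with pseudocounts of 0.1 and 10 percentage points kept their sign, but the counts of members at least 2-fold different did not hold, as given with them. No paired analysis was possible because each condition and fraction has 1 library. The unknown depth limits every share.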
